A study of Mus musculus with 12 samples.

Results

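The 31 genes described here are tuft cell genes, the markers, receptors, enzymes and signalling proteins that distinguish tuft cells from the other epithelial cells of the gut. They were chosen by gene symbol. No measured value enters the rule, but the list was drawn up with earlier results of these data known, so it is not independent of them. All 31 were found among the 55304 gene symbols counted in 12 RNA libraries of colonic epithelium, each from a C57BL/6 mouse 6 weeks old. The mice formed 3 groups of 4. Control-OIL mice were labelled wild-type and given sunflower oil. Control-TMX mice were labelled wild-type and given tamoxifen, and their source names begin with VilCreER, a line in which the Villin promoter, active throughout the intestinal epithelium, drives a Cre recombinase that tamoxifen activates. EHF IKO mice carried the label of an intestinal knockout of Ehf, a transcription factor of the ETS family found in epithelia, and were given tamoxifen. The source names of the EHF IKO and the Control-OIL mice share the prefix EVCER, so the 2 tamoxifen-treated groups differ in source prefix as well as in the labelled knockout. The series text names the tamoxifen-treated Cre mice as a control for changes due to tamoxifen, and the labels give neither the deleted exons of Ehf nor the sex of the mice.

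Tuft cells are rare chemosensory cells of the epithelium. They sense luminal metabolites through receptors, a taste-type G protein, a phospholipase C and the cation channel TRPM5, and they answer with interleukin-25, leukotrienes, prostaglandins and acetylcholine. Their formation requires the POU-domain factor POU2F3. In the small intestine they start type 2 immune responses to helminths and protists, and in the colon they are a minor population.

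Between 7421411 and 10344161 reads were counted per library (median 8138352). Levels are given in CPM, read counts divided by the TMM-scaled library size, and a level of 3 counts was 0.280 to 0.464 CPM depending on the library. Ehf was at 383 to 479 CPM in Control-OIL, 324 to 373 in Control-TMX and 308 to 367 in EHF IKO, with log2 fold changes of -0.33 ± 0.11 (SE) from Control-OIL (adjusted p = 0.159 by edgeR) to EHF IKO and of -0.02 ± 0.11 from Control-TMX (adjusted p = 0.972 by edgeR). All exons of Ehf are summed in these values, which therefore do not measure the deletion. Replicates 1 and 2 of every group had Xist above 100 CPM and replicates 3 and 4 below it. In EHF IKO replicate 2, 12 satellite-like genes took 10.4% of the counts, against at most 0.114% in any other library. Mitochondrial genes took 10.7% to 26.3% of the counts.

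Of the 31 genes, 24 had enough counts to be tested. In EHF IKO against the mean of both control groups, Dclk1, a microtubule-associated kinase and the most used tuft cell marker, rose 1.64-fold, and the other 23 did not pass the test. The count of 1 of 24 stands beside 1.72% of the 15743 genes tested that were called in that comparison, 0.858% as higher. At an unadjusted p under 0.05 there were 6 of the 24, all higher (Dclk1, Lrmp, Avil, Rgs13, Plcg2 and Alox5), beside 11.6% of all genes, or 6.28% counting those that were higher. By point estimate 17 of the 24 genes were higher in EHF IKO and 7 lower, beside 51.9% of all genes that were higher. Between the control groups 16 of the 24 were higher in Control-TMX than in Control-OIL, beside 48.5%. The median log2 fold change of the 24 genes against the mean of both controls was 0.23, beside 0.01 for all genes tested. That median was 0.13 without EHF IKO replicate 4, and 0.27 without EHF IKO replicate 2, the library with the satellite-like counts. The call of Dclk1 was lost when any 1 library other than Control-OIL replicate 1 or EHF IKO replicate 1 was left out, and without either of those it held, joined by Rgs13 and Avil respectively, beside 1.49% and 0.781% of all genes. Against Control-OIL alone and against Control-TMX alone edgeR called none of the 24. In bulk RNA a change in the number of tuft cells and a change in RNA per tuft cell cannot be told apart.

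**Figure D1:**
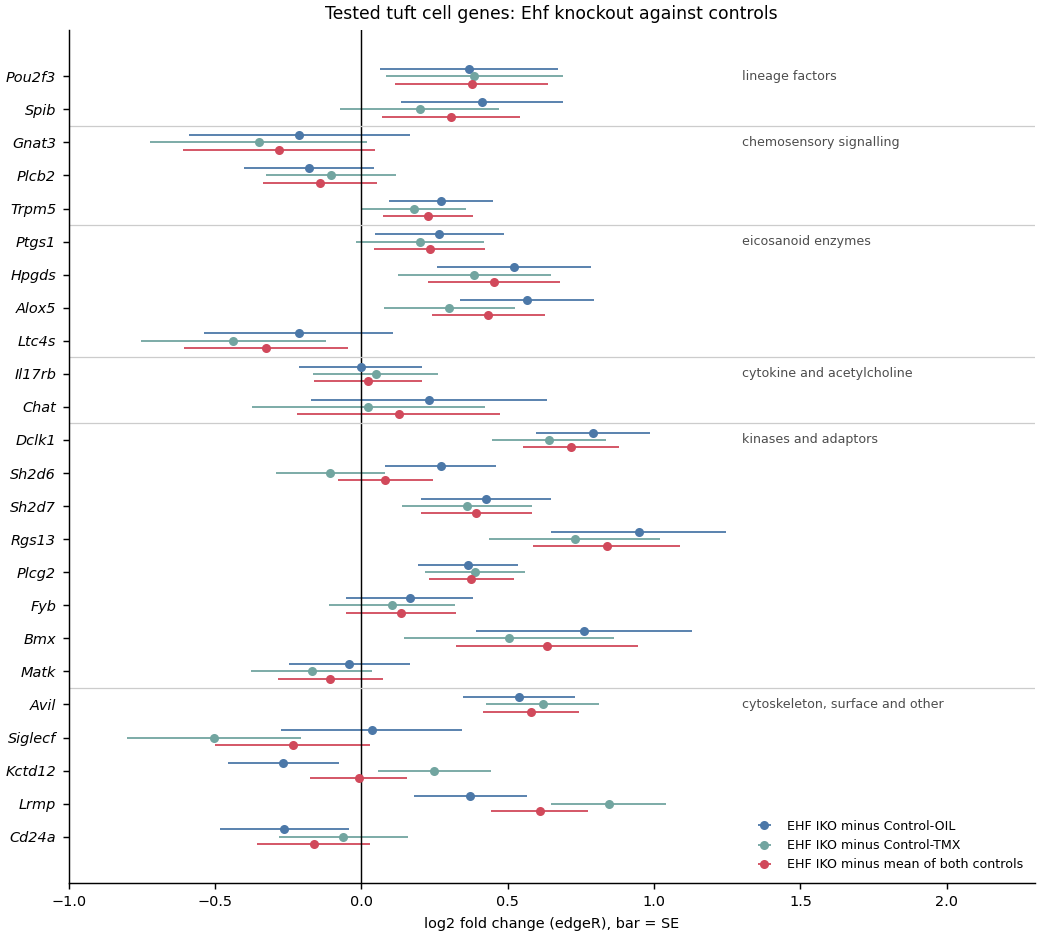
Log2 fold changes (horizontal axis) of the 24 tested tuft cell genes, grouped by role, in EHF IKO against Control-OIL, Control-TMX and the mean of both, with the SE of the edgeR fit as bars (4 libraries per group). Rgs13, Dclk1, Bmx, Lrmp and Avil have the largest values against the mean of both controls, from 0.58 to 0.84, and Ltc4s, Gnat3 and Siglecf the lowest.

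Dclk1 (ENSMUSG00000027797, GRCm38 chromosome 3, 55242364 to 55539068, plus strand) was at 29.4, 17.1, 22.1 and 15.9 CPM in the 4 Control-OIL libraries, at 22.4, 20.6, 25.9 and 24.3 in Control-TMX, and at 26.8, 35.0, 35.1 and 48.5 in EHF IKO. All 4 EHF IKO libraries were above all 4 Control-TMX libraries, and 3 of them were above every control library. Control-OIL replicate 1 was above EHF IKO replicate 1, so the knockout and the Control-OIL libraries overlapped. Relative to the mean of both controls the log2 fold change was 0.72 ± 0.16 (edgeR adjusted p = 0.0384). It was 0.79 ± 0.20 relative to Control-OIL (edgeR adjusted p = 0.0548) and 0.64 ± 0.19 relative to Control-TMX (edgeR adjusted p = 0.174). The adjusted p of the first of these lay near the threshold. It ranged from 2.2e-05 to 0.111 over 19 alternatives and was called in 8 of them. The gene was still called when Control-OIL replicate 1 (0.0104) or EHF IKO replicate 1 (0.0295) was left out. Among the fits without 1 library, the call was lost without Control-OIL replicate 2 (edgeR adjusted p = 0.0687), 3 (0.0618) or 4 (0.0578), without Control-TMX replicate 1 (0.0723), 2 (0.0799), 3 (0.0572) or 4 (0.0585), and without EHF IKO replicate 2 (0.105), 3 (0.111) or 4 (0.0766), while the log2 fold change stayed between 0.54 and 0.84.

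The reference lists a pair of start sites for Dclk1, one at the 5' end of the gene and one inside it. Their promoters are shown because Dclk1 is the one gene called, and the deposited counts, which sum all exons, do not separate transcripts from either start. Each runs from 250 bases before the start to 50 after it, 5' to 3' on the plus strand (RefSeq, GRCm38.p6), with the bases after the start in capitals. The positions are chr3:55242114-55242413 for the first and chr3:55461478-55461777 for the second.
Dclk1 outer start: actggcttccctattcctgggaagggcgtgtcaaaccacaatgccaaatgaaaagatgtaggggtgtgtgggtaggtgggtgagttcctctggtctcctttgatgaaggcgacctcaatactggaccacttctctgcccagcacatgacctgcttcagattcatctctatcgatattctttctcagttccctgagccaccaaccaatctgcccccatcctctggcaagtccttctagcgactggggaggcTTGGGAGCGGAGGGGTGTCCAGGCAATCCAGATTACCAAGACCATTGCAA
Dclk1 inner start: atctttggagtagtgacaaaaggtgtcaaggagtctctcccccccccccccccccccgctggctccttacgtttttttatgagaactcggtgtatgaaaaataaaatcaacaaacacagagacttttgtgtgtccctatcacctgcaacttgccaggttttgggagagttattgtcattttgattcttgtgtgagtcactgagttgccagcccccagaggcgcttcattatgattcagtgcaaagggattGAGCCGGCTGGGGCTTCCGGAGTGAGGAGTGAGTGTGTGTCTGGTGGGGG

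**Figure D2:**
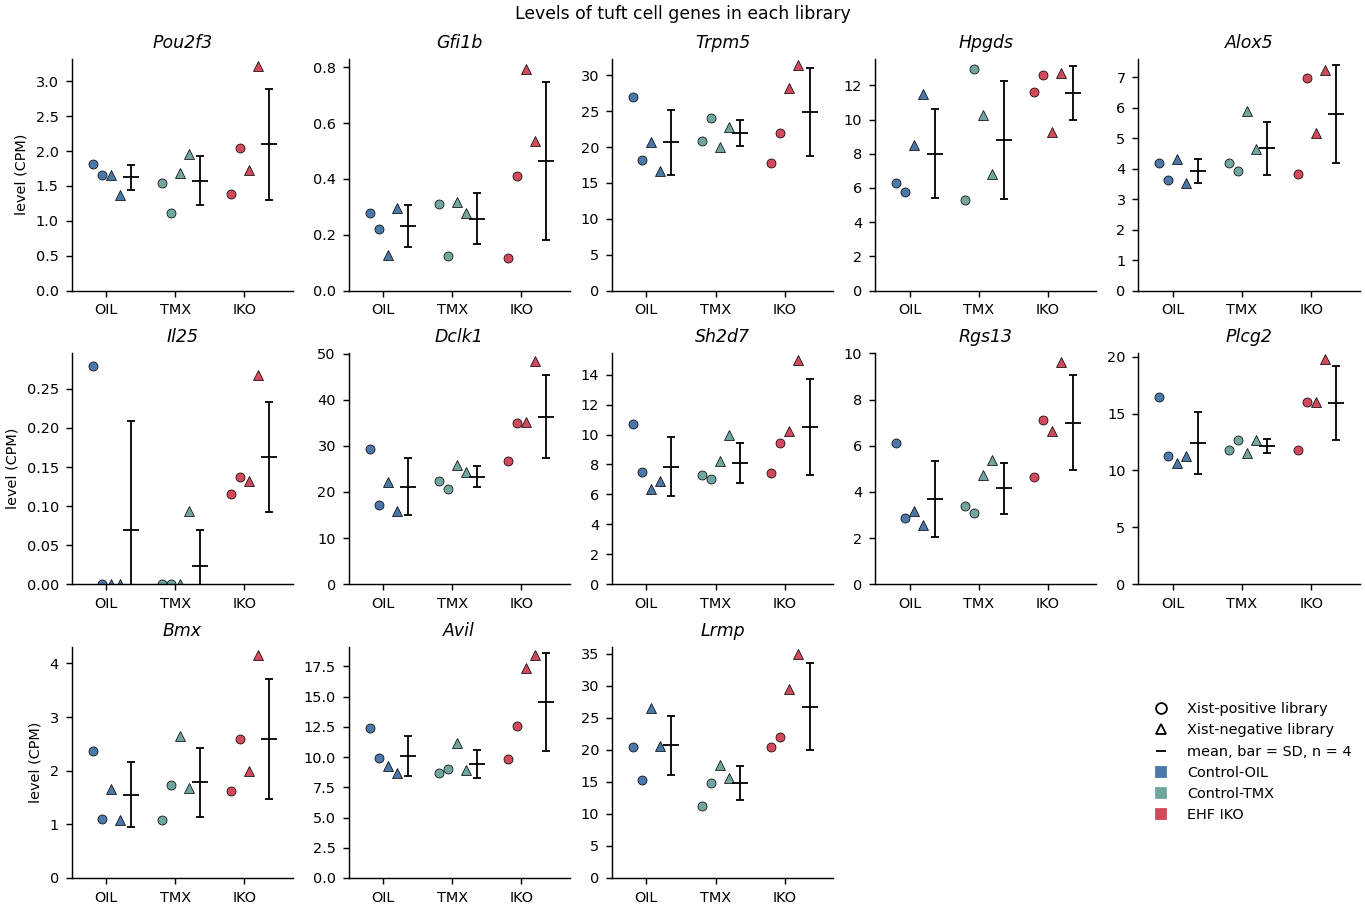
Level in CPM (vertical axis, from 0) of 13 tuft cell genes in each of the 12 libraries, by group, with circles for Xist-positive and triangles for Xist-negative libraries and the mean and SD of 4 libraries beside them (SD bars are clipped at 0). EHF IKO replicate 4, the last point of its group, is the highest of all 12 libraries for Dclk1 at 48.5, Lrmp at 35.0, Trpm5 at 31.5 and Rgs13 at 9.65.

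The lineage factors were low and none passed the test. Pou2f3, the factor that tuft cells need to form, was at 1.81, 1.65, 1.65 and 1.38 CPM in Control-OIL, 1.55, 1.11, 1.69 and 1.96 in Control-TMX and 1.39, 2.05, 1.72 and 3.22 in EHF IKO. The groups overlapped and the highest library was EHF IKO replicate 4. The fitted log2 fold change from the mean of both controls was 0.38 ± 0.26 (edgeR adjusted p = 0.666). Gfi1b, a zinc-finger repressor used as a tuft cell marker, had 2, 2, 1 and 3 counts in Control-OIL, 2, 1, 3 and 3 in Control-TMX and 1, 3, 6 and 4 in EHF IKO, too few to test. Spib, an ETS-family factor that B cells and the epithelial cells over lymphoid follicles also express, was at 4.85 ± 1.76, 5.59 ± 1.53 and 6.39 ± 1.62 CPM (SD, n = 4) in Control-OIL, Control-TMX and EHF IKO.

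The chemosensory genes did not share a direction. Trpm5, the cation channel that depolarises the cell, was at 27.0, 18.2, 20.7 and 16.7 CPM in Control-OIL, 20.9, 24.0, 20.05 and 22.7 in Control-TMX and 17.7, 22.02, 28.2 and 31.5 in EHF IKO. EHF IKO replicates 3 and 4 were above every control library and replicate 1 lay among the lowest. Relative to the mean of both controls the log2 fold change was 0.23 ± 0.15 (edgeR adjusted p = 0.654). Gnat3, the taste G protein alpha subunit gustducin, was at 1.27 ± 0.666, 1.36 ± 0.196 and 1.08 ± 0.312 CPM (SD, n = 4) in Control-OIL, Control-TMX and EHF IKO, with a log2 fold change of -0.28 ± 0.33. Plcb2, the phospholipase C downstream of it, was at 5.85 ± 1.94, 5.47 ± 0.434 and 5.11 ± 0.734 CPM, with a log2 fold change of -0.14 ± 0.19. Neither passed the test. Sucnr1, the receptor for succinate, had 5, 8 and 14 counts in all in the 3 groups in the same order, and the G protein gamma subunit gene Gng13 had 6, 3 and 8. Of the exon bases of Gng13, 51.6% overlap Chtf18 on the other strand, and reads falling in both genes were not counted.

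Among the tested eicosanoid genes, Ptgs1, Hpgds and Alox5 had positive estimates and Ltc4s a negative one, and none passed the test. Hpgds, the haematopoietic prostaglandin D2 synthase, was at 6.27, 5.74, 8.51 and 11.5 CPM in Control-OIL, 5.26, 12.9, 10.2 and 6.80 in Control-TMX and 11.6, 12.6, 9.28 and 12.7 in EHF IKO. The EHF IKO libraries were close together and high, and the control libraries were spread over the whole range. The estimate for Hpgds relative to the mean of both controls was a log2 fold change of 0.45 ± 0.22 (edgeR adjusted p = 0.470). Alox5, the 5-lipoxygenase, was at 4.18, 3.64, 4.32 and 3.54 CPM in Control-OIL, 4.18, 3.94, 5.91 and 4.66 in Control-TMX and 3.83, 6.98, 5.17 and 7.24 in EHF IKO. EHF IKO replicates 2 and 4 were above every control library and replicates 1 and 3 were not. For Alox5 the estimate was 0.43 ± 0.19 (edgeR unadjusted p = 0.0402, adjusted p = 0.393). Ptgs1, the constitutive cyclooxygenase, was at 5.28 ± 0.812, 5.50 ± 0.749 and 6.35 ± 2.06 CPM (SD, n = 4) in Control-OIL, Control-TMX and EHF IKO. Ltc4s, the leukotriene C4 synthase, was at 1.71 ± 0.337, 1.97 ± 0.537 and 1.46 ± 0.517 CPM, with a log2 fold change of -0.33 ± 0.28, and 26.4% of its exon bases overlap an antisense gene. Alox5ap, the protein that presents arachidonate to 5-lipoxygenase, had 15, 17 and 25 counts in all in the 3 groups.

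The cytokine Il25, the signal from tuft cells to group 2 innate lymphoid cells, was close to the limit of detection. It had 2, 0, 0 and 0 counts in Control-OIL, 0, 0, 0 and 1 in Control-TMX and 1, 1, 1 and 2 in EHF IKO. All 4 EHF IKO libraries and 2 of the 8 control libraries had a count, and no library was above the level of 3 counts. Il17rb, a subunit of the receptor for interleukin-25, was at 5.00 ± 1.23, 4.85 ± 0.708 and 5.02 ± 0.751 CPM (SD, n = 4) in Control-OIL, Control-TMX and EHF IKO, with a log2 fold change of 0.02 ± 0.19 against the mean of both controls. Chat, which makes acetylcholine, was at 1.62 ± 0.873, 1.82 ± 0.448 and 1.87 ± 0.911 CPM, with a log2 fold change of 0.13 ± 0.35. Neither of these 2 genes passed the test.

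Of the 8 kinases and adaptors, 7 had positive estimates against the mean of both controls, beside 51.9% of all genes. Their median log2 fold change was 0.38, and Dclk1 alone was called, beside 1.72% of all genes. Between the control groups 7 of the 8 were also higher in Control-TMX than in Control-OIL, beside 48.5% of all genes, with a median of 0.14. Rgs13, a GTPase-activating protein for G protein alpha subunits that mast cells and germinal centre B cells also express, was at 6.13, 2.87, 3.18 and 2.56 CPM in Control-OIL, 3.41, 3.08, 4.75 and 5.40 in Control-TMX and 4.64, 7.11, 6.63 and 9.65 in EHF IKO. In all, 3 EHF IKO libraries were above every control library, and Control-OIL replicate 1 was above EHF IKO replicate 1. Of the 4 tested mast cell markers, 3 were higher and 1 lower in EHF IKO against the mean of both controls, and Cma1 alone was called. Its values stand with those markers further on. For Rgs13 the log2 fold change was 0.84 ± 0.25 (edgeR adjusted p = 0.123), and without Control-OIL replicate 1 it was 1.01 (edgeR adjusted p = 0.0330). Over 19 alternatives the adjusted p of Rgs13 ranged from 0.0103 to 0.294, and the gene was called in 2 of them. Among the 12 fits without 1 library, it was called in 1. Plcg2, the phospholipase C gamma that B cells and mast cells also use, was at 16.4, 11.3, 10.7 and 11.3 CPM in Control-OIL, 11.8, 12.7, 11.5 and 12.7 in Control-TMX and 11.8, 16.003, 16.05 and 19.8 in EHF IKO. Control-OIL replicate 1 again stood with the higher EHF IKO libraries and EHF IKO replicate 1 with the controls. Its log2 fold change was 0.38 ± 0.15 (edgeR unadjusted p = 0.0203, adjusted p = 0.289).

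Sh2d7, an SH2-domain adaptor restricted to tuft cells in the gut epithelium, was at 10.7, 7.50, 6.35 and 6.88 CPM in Control-OIL, 7.28, 7.02, 8.23 and 9.97 in Control-TMX and 7.42, 9.44, 10.2 and 15.0 in EHF IKO. Only EHF IKO replicate 4 was above every control library. The log2 fold change of Sh2d7 relative to the mean of both controls was 0.39 ± 0.19 (edgeR adjusted p = 0.452). Bmx, a TEC-family tyrosine kinase, was at 2.37, 1.10, 1.65 and 1.08 CPM in Control-OIL, 1.08, 1.72, 2.64 and 1.68 in Control-TMX and 1.62, 2.599, 1.99 and 4.15 in EHF IKO. The groups overlapped, again with EHF IKO replicate 4 the highest. Its log2 fold change was 0.63 ± 0.31 (edgeR adjusted p = 0.462). The adaptors Sh2d6 and Fyb and the kinase Matk had log2 fold changes of 0.08 ± 0.16, 0.14 ± 0.19 and -0.11 ± 0.18, and none of these 3 genes passed the test.

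Among the cytoskeletal, surface and other genes, Avil and Lrmp had the largest positive estimates and the rest were near or below 0. Avil, which encodes advillin, an actin-bundling protein of the apical tuft, was at 12.4, 9.93, 9.27 and 8.65 CPM in Control-OIL, 8.67, 8.99, 11.2 and 8.95 in Control-TMX and 9.86, 12.6, 17.4 and 18.5 in EHF IKO. In all, 3 EHF IKO libraries were above every control library and replicate 1 was not. The log2 fold change of Avil from the mean of both controls was 0.58 ± 0.16 (edgeR adjusted p = 0.101), and without EHF IKO replicate 1 it was 0.73 (edgeR adjusted p = 0.0424). Over 19 alternatives the adjusted p of Avil ranged from 0.0364 to 0.336, and the gene was called in 2 of them. Among the 12 fits without 1 library, it was called in 1. Lrmp, a membrane protein of the endoplasmic reticulum that lymphocytes also express, was at 20.5, 15.3, 26.5 and 20.5 CPM in Control-OIL, 11.3, 14.8, 17.6 and 15.6 in Control-TMX and 20.5, 22.02, 29.6 and 35.0 in EHF IKO. All 4 EHF IKO libraries were above all 4 Control-TMX libraries and overlapped with Control-OIL. Its log2 fold change was 0.85 ± 0.20 relative to Control-TMX (edgeR adjusted p = 0.0609) and 0.61 ± 0.17 relative to the mean of both controls (adjusted p = 0.0869 by edgeR). DESeq2 called both (adjusted p = 0.0110 and 0.0476), beside 1.83% and 2.56% of all genes it tested. Over the alternatives the adjusted p ranged from 0.00016 to 0.197 against Control-TMX and from 0.0027 to 0.263 against the mean of both controls.

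Siglecf, a sialic acid receptor that eosinophils also carry, was at 2.93, 1.324, 1.91 and 1.38 CPM in Control-OIL, 2.48, 2.59, 2.85 and 2.80 in Control-TMX and 1.16, 1.91, 2.254 and 2.28 in EHF IKO. All 4 EHF IKO libraries were below all 4 Control-TMX libraries and within the range of Control-OIL or below it. Its log2 fold change against Control-TMX was -0.50 ± 0.30 (edgeR adjusted p = 0.543). Of the 24 genes, Dclk1 and Lrmp had EHF IKO libraries wholly above Control-TMX, beside 3.3% of all genes tested, and Siglecf wholly below, beside 3.88%. No tested member had EHF IKO libraries wholly above or below Control-OIL, beside 3.25% and 3.3% of all genes, and none had them wholly above or below both control groups together, beside 1.16% and 1.23%. Kctd12 and Cd24a had log2 fold changes of -0.01 ± 0.17 and -0.16 ± 0.19 against the mean of both controls. Nrgn had 27, 18 and 15 counts in all in Control-OIL, Control-TMX and EHF IKO, and Ly6g6f 17, 25 and 24, too few to test.

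Promoters of Rgs13 and Avil, the pair with the largest estimates among the tested genes of a core list of 10 tuft cell markers, are shown beside those of Dclk1. They are again from RefSeq (GRCm38.p6), 5' to 3' on the gene's strand, with the 50 bases after the start in capitals, at chr1:144177323-144177622 on the minus strand and chr10:127000459-127000758 on the plus strand.
Rgs13: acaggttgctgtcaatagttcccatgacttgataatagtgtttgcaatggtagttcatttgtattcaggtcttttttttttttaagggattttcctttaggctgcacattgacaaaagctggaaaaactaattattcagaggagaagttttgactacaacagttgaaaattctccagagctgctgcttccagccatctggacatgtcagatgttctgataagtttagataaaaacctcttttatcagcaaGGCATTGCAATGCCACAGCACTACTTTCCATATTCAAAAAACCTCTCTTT
Avil: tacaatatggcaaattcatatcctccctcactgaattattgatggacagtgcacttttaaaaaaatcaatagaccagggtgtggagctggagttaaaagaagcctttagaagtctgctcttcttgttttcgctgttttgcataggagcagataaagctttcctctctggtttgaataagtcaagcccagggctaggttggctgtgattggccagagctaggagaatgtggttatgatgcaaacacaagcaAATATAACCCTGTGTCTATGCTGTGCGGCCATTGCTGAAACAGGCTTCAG

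In all, 26 of the 31 genes were matched to 29 promoters in the RefSeq table, and Pou2f3, Alox5ap, Il25, Lrmp and Cd24a were not matched. The octamer ATGCAAAT, the textbook motif of POU factors, was searched on both strands and lay in 3 of the 29 promoters, or 10.3%, against 1.74% of all 32851 promoters of that length. The ETS-type motif AGGAAGT lay in 4 of the 29, or 13.8%, against 9.35% of all, and CGGAAGT in 1, or 3.45%, against 6.42%. At least 1 of these ETS-type motifs lay in 4 of the 29, or 13.8%, against 15.1% of all. None of the 3 motifs lay in the Dclk1, Rgs13 or Avil windows, which says only that these letters are not in them. The 3 octamer matches are shown with 16 bases before and after, on the gene's strand with the motif in capitals, at chr6:65144881-65144920 (minus strand) for Hpgds, chr14:102982774-102982813 (minus strand) for Kctd12 and chr3:60081805-60081844 (plus strand) for Sucnr1.
Hpgds: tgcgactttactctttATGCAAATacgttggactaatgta
Kctd12: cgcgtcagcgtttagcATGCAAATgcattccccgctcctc
Sucnr1: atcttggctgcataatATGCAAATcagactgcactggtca

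Against Control-OIL the median log2 fold change of the 24 genes was 0.27, beside -0.01 for all genes tested. Of the 24, 17 were higher and 7 lower, beside 48.7% of all genes that were higher. edgeR called none, beside 1.68% of all genes (0.921% as higher). At an unadjusted p under 0.05 there were 5, all higher (Dclk1, Rgs13, Avil, Alox5 and Plcg2), beside 6.85% of all genes that were higher at that level, and DESeq2 called 1, Dclk1, beside 2.64% of all genes it tested. The median was 0.42 without Control-OIL replicate 1, where edgeR called Dclk1 and Rgs13, beside 1.08% of all genes, and without EHF IKO replicate 1 it called Dclk1, beside 0.65%. Against Control-TMX the median was 0.20, beside 0.02, again with 17 higher and 7 lower, beside 52.6% of all genes that were higher. edgeR called none, beside 0.8% of all genes (0.33% as higher), 5 were higher at an unadjusted p under 0.05 (Lrmp, Dclk1, Avil, Rgs13 and Plcg2), beside 5.6%, and DESeq2 called 1, Lrmp, beside 1.83% of all genes it tested. Without EHF IKO replicate 4 the median was 0.12. Both comparisons use the same EHF IKO libraries.

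No member was called between the control groups. Of the 24 genes, 16 were higher in Control-TMX than in Control-OIL and 8 lower, beside 48.5% of all genes that were higher. The median log2 fold change was 0.11 beside -0.01 for all genes. This median was 0.058 and 0.046 without Control-TMX replicate 3 or 4, and 0.20, 0.057 and 0.0045 without Control-OIL replicate 1, 2 or 4. edgeR called none, beside 0.0826% of all genes (0.0381% as higher). At an unadjusted p under 0.05 there were 2, both lower, beside 12.9% of all genes (6.65% higher), Kctd12 with a log2 fold change of -0.52 ± 0.19 (edgeR adjusted p = 0.301) and Lrmp with -0.47 ± 0.20 (edgeR adjusted p = 0.335), and DESeq2 called none, beside 1.41% of all genes it tested. Dclk1 had a log2 fold change of 0.15 ± 0.20 between the controls (edgeR adjusted p = 0.791).

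The libraries were also taken by Xist status, a split added after the data were seen, with 2 EHF IKO and 4 control libraries in each class and all in 1 fit. In the Xist-negative libraries 20 of the 24 genes were higher in EHF IKO and the median log2 fold change was 0.29, beside 0.0027 for all genes. There edgeR called Avil (0.92 ± 0.17, adjusted p = 0.0117), Lrmp (0.71 ± 0.16, adjusted p = 0.0376) and Dclk1 (0.94 ± 0.20, adjusted p = 0.0447), beside 1.3% of all genes. In the Xist-positive libraries 14 of the 24 were higher and the median was 0.11, beside 0.015 for all genes. In that class edgeR called none, beside 3.55% of all genes, while 3 had an unadjusted p under 0.05 (Dclk1, Hpgds and Lrmp), beside 20.3%. Trpm5 had a log2 fold change of 0.58 ± 0.16 in the Xist-negative and -0.18 ± 0.17 in the Xist-positive libraries. The test of the difference between the classes called none of the 24 genes and 0% of all genes. At an unadjusted p under 0.05 it had 2 of the 24, Trpm5 (difference 0.76 ± 0.24, edgeR adjusted p = 0.205) and Avil (0.74 ± 0.25, edgeR adjusted p = 0.210), beside 15.8% of all genes. The Xist-positive class holds EHF IKO replicate 1, the lowest of its group for most members, and the library with satellite-like counts. It also holds Control-OIL replicate 1, the highest of its group for 17 of the 24 genes. The Xist-negative class holds EHF IKO replicate 4, the highest of its group for 15 of them. The part of single libraries in the split was not tested.

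**Figure D3:**
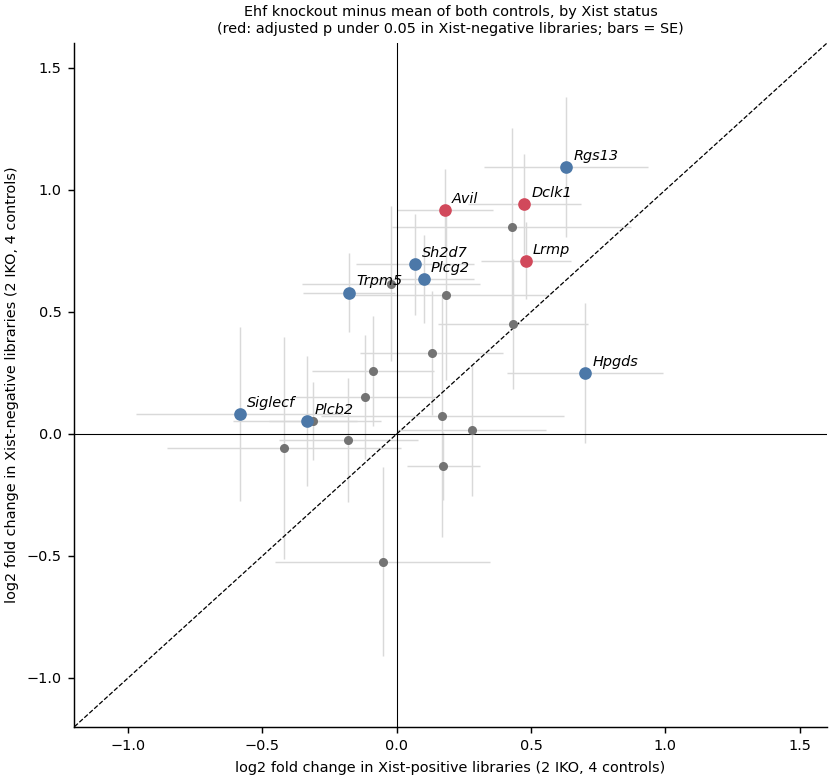
Log2 fold change of each of the 24 tested tuft cell genes in EHF IKO against the mean of both controls, in the Xist-positive (horizontal) and the Xist-negative libraries (vertical), with SE bars and the line of equal values dashed. Avil, Lrmp and Dclk1, in red, passed the test in the Xist-negative libraries, and the test of the difference between the classes called no gene.

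Per length, Cd24a stood far above the rest. Its mean over the 8 control libraries was 69.2 ± 20.5 (SD) RPKM (reads per kilobase of exon, scaled to library size as CPM), and Cd24a, a surface glycoprotein, is also expressed by epithelial progenitors and leukocytes. Kctd12 at 6.67 ± 1.99, Sh2d6 at 5.19 ± 1.20 and Lrmp at 4.37 ± 1.15 came next on the same scale. Trpm5 was at 3.33 ± 0.512, Avil at 2.87 ± 0.401 and Dclk1, whose annotated exons span 15296 bases, at 1.45 ± 0.290. At the low end were Gfi1b at 0.133 ± 0.0431, Sucnr1 at 0.115 ± 0.118 and Il25 at 0.0437 ± 0.0934. In the order of all 31 genes, Cd24a and Kctd12 were the only neighbours whose ranges over the control libraries did not overlap.

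**Figure D4:**
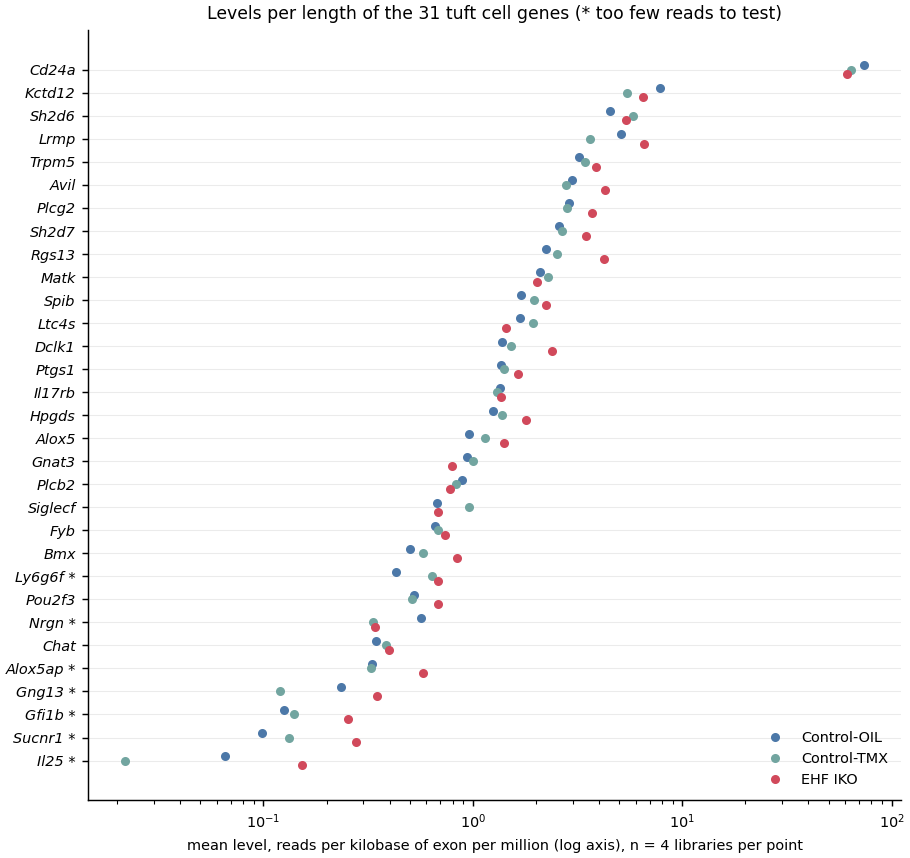
Mean level per length (horizontal log axis, RPKM) of the 31 tuft cell genes in each group, ordered by their mean over the 8 control libraries, with 4 libraries behind each point. Cd24a is highest at 69.2 in the controls, Il25 lowest at 0.0437, and the 7 genes with a star had too few counts to test.

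Most members varied together from library to library within groups. Over the 12 libraries, as deviations from group means of log2 CPM, the median Pearson r of the 24 genes with the mean of the other tested core genes was 0.65, and 17 had an r above 0.5, beside 21.2% of all genes. Rgs13 and Dclk1 had the highest values, both 0.93. The eicosanoid genes Hpgds and Ltc4s had values of -0.32 and -0.31, and Il17rb -0.24. The genes outside the list with the highest values were Tmed10 at 0.96, Chchd1 at 0.96 and Nudc at 0.96, and none of the top 10 was in a further list of 36 tuft cell genes. These values share library depth and composition and are given as a description. Control-OIL replicate 1 was the highest of its group for 17 of the 24 genes, where it was highest for 30.4% of all genes. EHF IKO replicate 4 was the highest of its group for 15, beside 36% of all genes, and EHF IKO replicate 1 the lowest for 14, beside 19.3%. Control-TMX replicate 2 was likewise the lowest of its group for 14, beside 25.8%, and Control-OIL replicate 4 for 13, beside 29.6%.

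Summed over the 10 core genes, the level was 43.1 to 72.1 CPM in Control-OIL, 54.2 to 60.3 in Control-TMX and 50.3 to 89.6 in EHF IKO, so the groups overlapped. In EHF IKO replicates 1 to 4 the sum was 50.3, 64.6, 76.3 and 89.6 CPM where mitochondrial genes took 13.2%, 14.4%, 19.2% and 21.3% of the counts. In Control-OIL it was 72.1, 47.8, 50.3 and 43.1 CPM beside 26.3%, 17.4%, 19.9% and 10.7%, and in Control-TMX 54.2, 56.01, 56.9 and 60.3 beside 26.2%, 12.2%, 14.8% and 18.3%. The libraries of EHF IKO and of Control-OIL stood in the same order on both measures, and in Control-TMX the library with the highest mitochondrial share had the lowest sum. The part of the mitochondrial share in the levels was not tested. Other genes of these pathways, listed apart from the members, gave no call against the mean of both controls by edgeR. Of the further 36 tuft cell genes, 31 were tested, 20 were higher and 11 lower, and their median log2 fold change was 0.09. Their smallest p was that of Tuba1a, an alpha-tubulin, with a log2 fold change of 1.15 ± 0.29 (edgeR adjusted p = 0.0578), followed by Bcl2l14 with 0.27 ± 0.07 (edgeR adjusted p = 0.0895). Of 13 partners of the taste pathway, 8 were tested, with 2 higher and 6 lower, and Itpr2, an inositol trisphosphate receptor, was at -0.31 ± 0.10 (edgeR adjusted p = 0.180). Of 17 eicosanoid partners, 8 were tested, also with 2 higher and 6 lower, and Pla2g4a, the phospholipase that releases arachidonate, was at -0.28 ± 0.12 (edgeR adjusted p = 0.354). Of 15 genes of the type 2 circuit, 7 were tested, with 5 higher and 2 lower. Il13ra1, a receptor subunit for interleukin-13, was at 0.35 ± 0.13 (edgeR adjusted p = 0.266), and Il9 had no count in any library.

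Markers of other cell types were summed in the same libraries, because several members are expressed outside tuft cells. Epithelial markers summed to 6094 to 8882 CPM over all libraries, and all 8 had positive estimates against the mean of both controls with none called, while Krt20, a keratin of differentiated surface cells, rose against Control-OIL (edgeR log2 fold change 0.71 ± 0.17, adjusted p = 0.0438). Of 13 stromal markers, 12 were tested and 11 were higher with none called against the mean of both controls. Their sum was 324 to 420 CPM in Control-OIL, 495 to 753 in Control-TMX and 444 to 1021 in EHF IKO, and the collagen genes Col1a2 and Col3a1 rose against Control-OIL (edgeR log2 fold changes 1.10 ± 0.25 and 1.05 ± 0.22, adjusted p = 0.0445 and 0.0318). All 7 tested of 11 myeloid and eosinophil markers were higher with none called, and their sum was 20.3 to 30.6, 21.7 to 27.4 and 22.9 to 41.7 CPM in the groups in the same order. Both tested of 9 B cell markers were higher with none called, and the sum was 7.49 to 12.9, 6.52 to 8.002 and 7.24 to 19.7 CPM.

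Of 13 mast cell markers, 4 were tested, with 2 higher and 2 lower in EHF IKO against Control-OIL. Against Control-TMX 3 were higher and 1 lower. In each of these comparisons Cma1 alone was called, as higher. Relative to the mean of both controls 3 were higher and 1 lower. There Cma1, a chymase gene, rose and was the only one called (log2 fold change 3.42 ± 0.47, edgeR adjusted p = 0.0020). The sum of the list was 57.2 to 105 CPM in Control-OIL, 67.5 to 85.3 in Control-TMX and 71.1 to 85.1 in EHF IKO. Of 11 markers of T cells and intraepithelial lymphocytes, 4 were tested and 3 were higher against the mean of both controls with none called. Their sum was 14.6 to 40.0, 12.2 to 24.3 and 20.1 to 30.5 CPM in the groups in the same order. All 3 tested of 12 enteric neuron and glia markers were lower with none called, and the sum was 7.83 to 12.6, 11.9 to 14.4 and 6.03 to 15.3 CPM. All 10 tested of 12 enteroendocrine markers were lower against the mean of both controls, and Chga, the chromogranin A gene, fell by 0.76 ± 0.12 on the log2 scale (edgeR adjusted p = 0.0033). Against Control-OIL alone 7 were lower and 3 higher with none called. Against Control-TMX alone 9 were lower and 1 higher, and Chga alone was called, as lower. Their median log2 fold change from Control-OIL to Control-TMX was 0.23. The sum was 191 to 307, 246 to 302 and 149 to 204 CPM in the 3 groups. No marker of these lists was at 0 in all libraries. The part of other cell types in the values of the tuft cell genes was not tested.

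**Figure D5:**
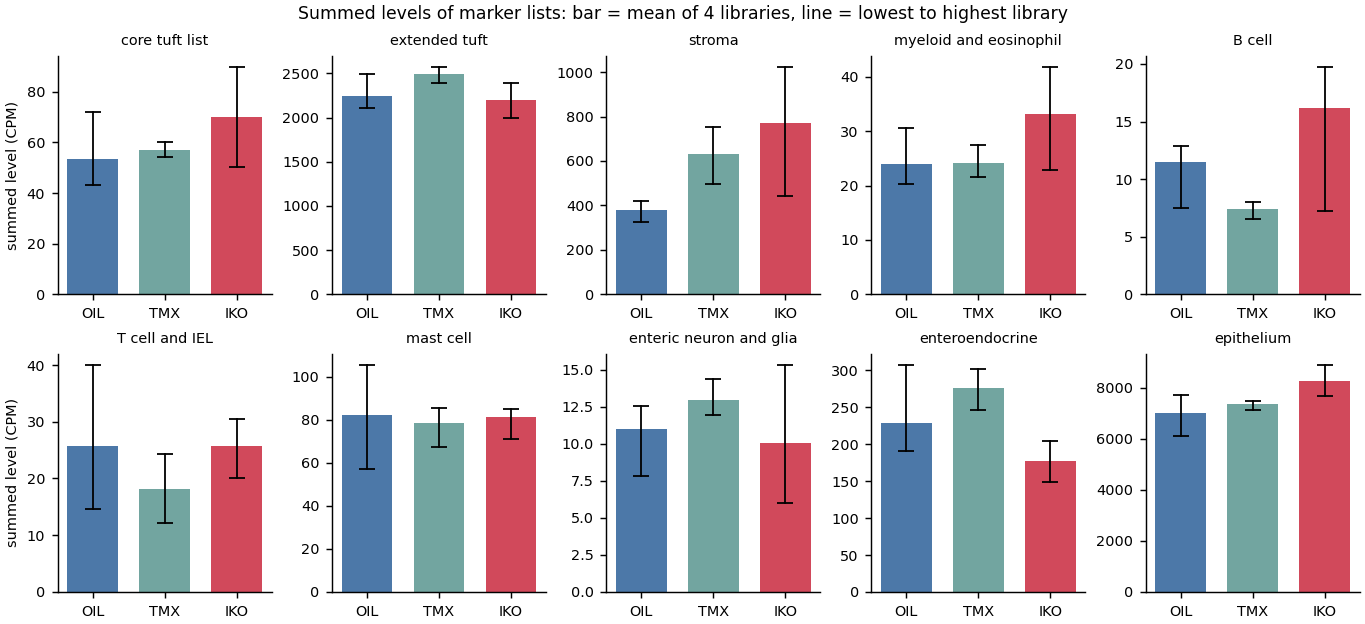
Summed level in CPM (vertical axes, from 0, a scale for each list) of 10 marker lists in Control-OIL, Control-TMX and EHF IKO, with the mean of 4 libraries as bars and the lowest to highest library as lines. The core tuft list overlaps between groups, at 50.3 to 89.6 in EHF IKO, and the stromal sum is widest there, at 444 to 1021.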

How the data were processed

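RNA from 12 libraries, 4 per group, was analysed. The deposited files hold whole-number read counts for each gene symbol. The authors counted, per the file headers, with featureCounts 1.6.1 over the exons of Ensembl GRCm38 release 98 with strand setting 0, so strands were not separated and reads in more than 1 gene were left out. Per the submitters' processing notes, reads were aligned with STAR (version not given in the sources used here). Exons of 12 of the 31 genes overlap another gene. Groups and replicates came from the labels. The labels show 1 library per mouse, and p-values measure the spread between these libraries.

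The test was that of edgeR 4.0.16 (R 4.3.3; TMM factors, filterByExpr by group, 1 quasi-likelihood fit of all 12 libraries with robust and legacy settings, 9 residual degrees of freedom). The common biological coefficient of variation was 18.3%. Benjamini-Hochberg adjustment ran over all 15743 genes that passed the filter, and an adjusted p under 0.05 was called. The 31 genes and the other lists were chosen with earlier results of these data known. Values per library are given for genes called in any comparison, the 10 with the smallest p against the mean of both controls, and Dclk1, Trpm5, Pou2f3, Gfi1b, Avil and Il25; values of Siglecf were added after they were seen. Members that passed the count filter are not all members. Levels between genes were divided by exon length (Ensembl annotation of GRCm38). The script was tested on simulated data. Alternatives were DESeq2 1.42.0, limma-voom (limma 3.58.1), DESeq2 size factors in edgeR, no count filter, only genes with mean log2 CPM of 1 or more, the compared groups alone, the replicate number as a block and each library left out. Xist status, as a covariate and as a split at 100 CPM, was added after the data were seen. Floors cover counting error only.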

Additional observations from a re-analysis of the deposited data

Results flagged for a closer look

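In 93 groups of 4 libraries, 1 per gene and group, the highest or lowest library was compared with the other 3 by Dixon's criterion, and 7 met it. Chance alone meets it in about 1 in 20 groups of normally distributed values, a rate that does not hold for counts near 0. Plcg2 was at 16.4 CPM in Control-OIL replicate 1 against 10.7 to 11.3 in the other 3 Control-OIL libraries, and Chat was at 2.93 CPM in the same library against 1.08 to 1.27. Avil was at 11.2 CPM in Control-TMX replicate 3 against 8.67 to 8.99, and Ptgs1 was at 9.42 CPM in EHF IKO replicate 3 against 4.96 to 5.57. Il25 stood apart in all 3 groups on very few counts, at 0.279 CPM in Control-OIL replicate 1 (2 counts) and 0.0932 CPM in Control-TMX replicate 4 (1 count), with none in the others of those groups, and at 0.268 CPM in EHF IKO replicate 4 (2 counts) against 0.116 to 0.137. A group with counts in only 1 library always meets the criterion, so it says nothing about Il25 in the control groups.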

How the results depend on the processing

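The median log2 fold change of the tested genes kept its sign in each comparison under every alternative run, with ranges over the fits without 1 library of 0.20 to 0.42 against Control-OIL, 0.12 to 0.29 against Control-TMX, 0.13 to 0.33 against the mean of both controls, and 0.0045 to 0.20 between the controls. The count of genes called depended on the setting. Against Control-OIL it was 0, with 2 without the count filter (Rgs13 and Dclk1), beside 1.76% of all genes. DESeq2 called 1 (Dclk1), beside 2.64%, and the fits without 1 library called 0 to 2, beside 0.65% to 4.41%. Against Control-TMX it was 0, with 2 without the filter (Dclk1 and Lrmp), beside 1.21% of all genes. It was 1, Lrmp each time, by DESeq2 (beside 1.83%), with the replicate block (0.457%) or with Xist status as a covariate (1.07%). Without any 1 library it was 0, beside 0.312% to 1%. Against the mean of both controls it was 1, with 4 without the filter (Rgs13, Dclk1, Lrmp and Avil), beside 2.02% of all genes. It was 2 (Dclk1 and Lrmp) by DESeq2 (beside 2.56%) or with Xist status (1.76%), and 0 with the replicate block (0.94%). Without 1 library it was 0 to 2, beside 0.67% to 3.23%. Between the controls it was 0, with 1 without the filter (Kctd12), beside 1.07% of all genes. Without any 1 library it was also 0, beside 0.0187% to 0.415%. Without the filter 41205 genes were tested and 831 were called against the mean of both controls, against 270 of 15743. In that comparison the median of all genes was 0.18 without the filter and 0.20 by DESeq2, beside 0.34 and 0.23 for the tuft cell genes. Against Control-OIL the medians of all genes were 0.15 and 0.19, beside 0.34 and 0.27 for the tuft cell genes. Against Control-TMX they were 0.14 and 0.18, beside 0.21 and 0.20. In the main fit the upper quartile of all genes against the mean of both controls was 0.14, below the medians of 0.18 and 0.20. With DESeq2 size factors in edgeR, on the filtered genes, the median of all genes there was 0.01. The medians of all genes without the filter and by DESeq2 are thus not those of the filtered genes. The distance of the tuft cell genes from them cannot be compared with that in the main fit. The causes of these shifts were not tested. Of 706 values of named genes under the alternatives, 676 kept their direction and their side of the threshold, 11 lost the call (all of Dclk1), 19 gained it and 0 changed sign. The replicate number was not taken as a pairing, since the deviations of same-numbered libraries from group means correlated with r from -0.41 to 0.40, 5 of 12 pairs were above 0.1, and 5 of 12 libraries correlated best with their own number. Between EHF IKO and Control-TMX all 4 pairs were positive, from 0.0998 to 0.40, with 3 above 0.1, and Xist status follows the number in every group. With the replicate block the edgeR adjusted p of Dclk1 against the mean of both controls was 0.0979 and that of Lrmp against Control-TMX 0.0366. Counts of a few reads limit Il25, Gng13, Sucnr1 and Gfi1b, which the filter left untested at this depth.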
